A study of Saccharomyces cerevisiae with 16 samples.

Results

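The heat shock and chaperone genes described here are 10 genes of *Saccharomyces cerevisiae*, taken by name from the RefSeq annotation of the sacCer3 genome, out of 6002 nuclear protein-coding genes. SSA1, SSA2, SSA3 and SSA4 encode the cytosolic Hsp70 chaperones, SSB1 and SSB2 the Hsp70 chaperones that sit on the ribosome, HSP82 and HSC82 the 2 Hsp90 chaperones, HSP104 a disaggregase that pulls proteins out of aggregates, and HSP26 a small heat shock protein that binds unfolded proteins. 4 of them, SSA2, SSB1, SSB2 and HSC82, are known as constitutive genes of growing cells. The other 6, SSA1, SSA3, SSA4, HSP82, HSP104 and HSP26, are known to be induced by heat, although SSA1 and HSP82 are also expressed without it.

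Trimethylation of histone H3 at lysine 4 (H3K4me3) is laid down by the Set1 complex at the 5′ end of genes that RNA polymerase II transcribes, so it marks the start of active genes. Heat shock genes are switched on by the factor Hsf1, which binds inverted repeats of the unit GAA, and by the stress factors Msn2 and Msn4, which bind the stress response element. Cells that grow without stress keep some of these chaperones at high levels and hold others almost silent. How the mark was distributed over the 10 genes in growing cells, and whether it moved with the strain, were the questions that the data could address.

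The data were peak lists from CUT&RUN, in which an antibody directs a nuclease to cut out the chromatin around the mark. All strains were BY4741 (his3Δ1 leu2Δ0 met15Δ0 ura3Δ0) carrying either the human HPRT1 locus (synHPRT1) or the same sequence written backwards (synHPRT1R). Each locus sat on a yeast artificial chromosome with a LEU2 marker (YAC) or was integrated in chromosome XI, which gave 4 strains with 2 libraries each from separate colonies of 1 strain. YAC strains were grown in SC–Leu and integrated strains in YPD, so that context and medium cannot be told apart. Every culture was grown at 30 °C for about 6 h after dilution, and cell walls were then digested at 37 °C for 45 min before nuclei were frozen. Whether that step at 37 °C touched the heat shock genes was not tested, since every library went through it.

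The libraries held between 3463 and 4049 peaks each. synHPRT1R YAC replicate 1 stood apart, with the fewest peaks, the lowest median fold enrichment on the nuclear chromosomes (1.86, against 2.04 to 2.36 in the other 7) and the highest background, 98.9 fragments at a position against 76.2 to 92.7. The source name of synHPRT1 YAC replicate 2 disagrees with its title and genotype, and the title was followed. Of 4 genes specific to MATa cells, the mating type of BY4741, STE2 and BAR1 had a peak in all 8 libraries, MFA2 in 1 and MFA1 in none. The median, lowest and highest fold at BAR1 (3.20, 2.63 and 3.84) were also those of the neighbouring gene SNL1. The peak counted at BAR1 may therefore belong to SNL1. Of 4 genes specific to MATalpha cells 3 had none and STE3 had a peak in 1 library. URA3 and MET17, which are deleted in BY4741, had none, as had 3 of 4 sporulation genes, while SMK1 had a peak in all 8. ACT1, TDH3 and PGK1, the genes of actin and of a pair of glycolytic enzymes, had median highest folds of 2.195, 2.29 and 3.02.

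A gene was given the peaks that overlapped its window by at least 1 bp, from 200 bp upstream of the gene start to the gene end. The gene start is the first base of the annotated gene, which in this annotation is the start codon. 2 measures were taken. The peak height is the highest fold enrichment over the local background among these peaks, as the peak caller gave it, and the covered share is the percentage of the window that lay under peaks. No peak in a list means that none passed the caller's threshold at that depth, not that the mark was absent. The lowest fold listed on the nuclear chromosomes lay between 1.09 and 1.24 per library.

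Features of sequence that bear on these values are shown first, the near-identical copies among the 10 genes and the Hsf1 motifs in front of them. Over the whole gene SSB1 and SSB2 were 97.4% identical, SSA2 and SSA1 96.4%, HSC82 and HSP82 91.7%, and SSA4 and SSA3 76.5%. In the 200 bases upstream of the start these pairs were between 39.8% and 49.5% identical. Words of 36 bases that occur elsewhere in the genome made up 48.3% of the window of SSB1, 56.1% of that of SSA2, 55.9% of that of SSA1 and 11.1% of those of HSC82 and HSP82. SSA3, SSA4, HSP104 and HSP26 held none. Only 6.78% of 6001 genes had more than 10% of such words. The sources differ on the read length, 75 bases in the methods and 36 in the reporting summary. With words of 75 bases, an alternative added after the data were seen, the shares were 32.6% at SSB1 and SSB2, 47.1% at SSA2, 46.9% at SSA1, 2.01% at HSC82 and 1.99% at HSP82. Read pairs that reach beyond a word would share less. A read inside such a word matches both copies equally well, and how such reads were placed is not given in the sources used here. Part of the signal of SSB1, SSB2, SSA1 and SSA2 may therefore belong to the partner, and so may some of that at HSC82 and HSP82.

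The 100 bases that begin 420 bases downstream of the start, where most summits of SSB1 and SSB2 lay, are shown here with the bases that differ in capitals. They lie on chrIV:44485-44584 for SSB1 and on chrXIV:252479-252578 for SSB2, both on the plus strand, and 97 of 100 bases were identical.
SSB1: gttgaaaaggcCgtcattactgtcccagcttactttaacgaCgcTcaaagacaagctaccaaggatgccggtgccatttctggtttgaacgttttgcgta
SSB2: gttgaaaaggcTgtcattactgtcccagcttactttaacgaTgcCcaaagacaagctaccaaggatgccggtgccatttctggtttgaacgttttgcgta
The 60 bases in front of the start differed at 41 positions, on chrIV:44005-44064 and chrXIV:251999-252058, so that reads there can be told apart.
SSB1 upstream: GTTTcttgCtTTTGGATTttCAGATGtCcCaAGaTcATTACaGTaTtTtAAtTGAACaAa
SSB2 upstream: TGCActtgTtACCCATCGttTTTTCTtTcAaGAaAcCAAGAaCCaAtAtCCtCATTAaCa
Under the peaks of SSA1 and SSA2, the 100 bases that begin 140 bases downstream of the start differed at 9 positions, on chrI:141192-141291 and chrXII:97246-97345, both on the minus strand.
SSA1: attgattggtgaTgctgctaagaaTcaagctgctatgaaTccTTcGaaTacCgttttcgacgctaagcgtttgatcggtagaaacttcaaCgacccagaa
SSA2: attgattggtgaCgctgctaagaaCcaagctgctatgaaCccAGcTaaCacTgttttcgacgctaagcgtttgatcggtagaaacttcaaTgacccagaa

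Promoters were searched from 250 bases before to 50 after the gene start for GAANNTTC and TTCNNGAA (each reads the same on both strands), for 3 alternating units (both motifs overlapping by a shared TTC or GAA), for AGGGG on either strand, and for TATAAA on the coding strand. TTCNNGAA was present in 12.9% of 6001 promoters and in 5 of the 10 members, SSA2, SSB2, HSC82, SSA1 and HSP82. GAANNTTC was present in 11.8% of all promoters and in SSA2 alone among the 10, and 3 alternating units in 0.783% of all promoters and again in SSA2 alone. AGGGG or its complement, the stress response element, was present in 21.6% of all promoters, in none of the 4 constitutive members and in 4 of the 6 inducible members, SSA1, SSA4, HSP82 and HSP104. TATAAA was present in 29.6% of all promoters, in 2 constitutive and in 4 inducible members. The promoter of SSA2 holds the 3 alternating units and lies on chrXII:97436-97735 (minus strand). Those of the Hsp90 pair, which differ in the number of matches, lie on chrXIII:632105-632404 (plus strand) for HSC82 and on chrXVI:98576-98875 (minus strand) for HSP82. Capitals mark the matches to GAANNTTC and TTCNNGAA, of which HSC82 had 3 and HSP82 had 2.
SSA2 promoter: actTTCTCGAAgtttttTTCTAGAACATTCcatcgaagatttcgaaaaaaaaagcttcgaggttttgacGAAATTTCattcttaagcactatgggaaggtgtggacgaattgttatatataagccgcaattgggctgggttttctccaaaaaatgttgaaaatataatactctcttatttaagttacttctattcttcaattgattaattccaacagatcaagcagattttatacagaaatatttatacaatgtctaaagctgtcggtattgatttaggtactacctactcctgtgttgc
HSC82 promoter: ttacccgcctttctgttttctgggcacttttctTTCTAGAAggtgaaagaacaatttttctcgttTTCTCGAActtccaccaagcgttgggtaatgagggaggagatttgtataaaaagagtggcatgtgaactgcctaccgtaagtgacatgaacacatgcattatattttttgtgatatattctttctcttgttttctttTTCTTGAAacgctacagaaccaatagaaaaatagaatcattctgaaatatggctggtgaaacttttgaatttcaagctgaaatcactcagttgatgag
HSP82 promoter: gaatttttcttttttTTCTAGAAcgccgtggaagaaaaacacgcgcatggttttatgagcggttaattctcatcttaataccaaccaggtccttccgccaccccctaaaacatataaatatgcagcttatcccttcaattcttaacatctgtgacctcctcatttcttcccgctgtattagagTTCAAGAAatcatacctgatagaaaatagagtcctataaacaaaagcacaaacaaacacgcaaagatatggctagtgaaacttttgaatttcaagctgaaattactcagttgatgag
A match is a run of letters and not a bound site, and SSB1, SSA3, SSA4, HSP104 and HSP26 held neither of the 8-base motifs in this window, which says nothing of sequence further upstream.

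All 4 constitutive members had a peak in all 8 libraries, and 1 of the 6 inducible members, SSA4, did so. Over all protein-coding genes 67.3% had a peak in all 8 libraries and 13.4% had none in any. SSA3 and HSP26 were among the latter, HSP82 had a peak in 1 library, SSA1 in 6 and HSP104 in 7. Each library held a peak at between 6 and 8 of the 10 genes (6.75 ± 0.71, SD, n = 8), beside 76.1% to 80.8% of all genes. When peaks with a −log10 q of at least 10 alone were used, SSB1 and SSB2 kept a peak in 8 libraries, SSA2 in 7, SSA4 in 4, SSA1 in 3, HSC82 and HSP104 in 1 each and the other 3 in none, and the mean number of members per library fell to 4. Under the same rule 2888 of all 6002 genes kept a peak in all 8 libraries, against 4040 with all peaks.

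**Figure D1:**
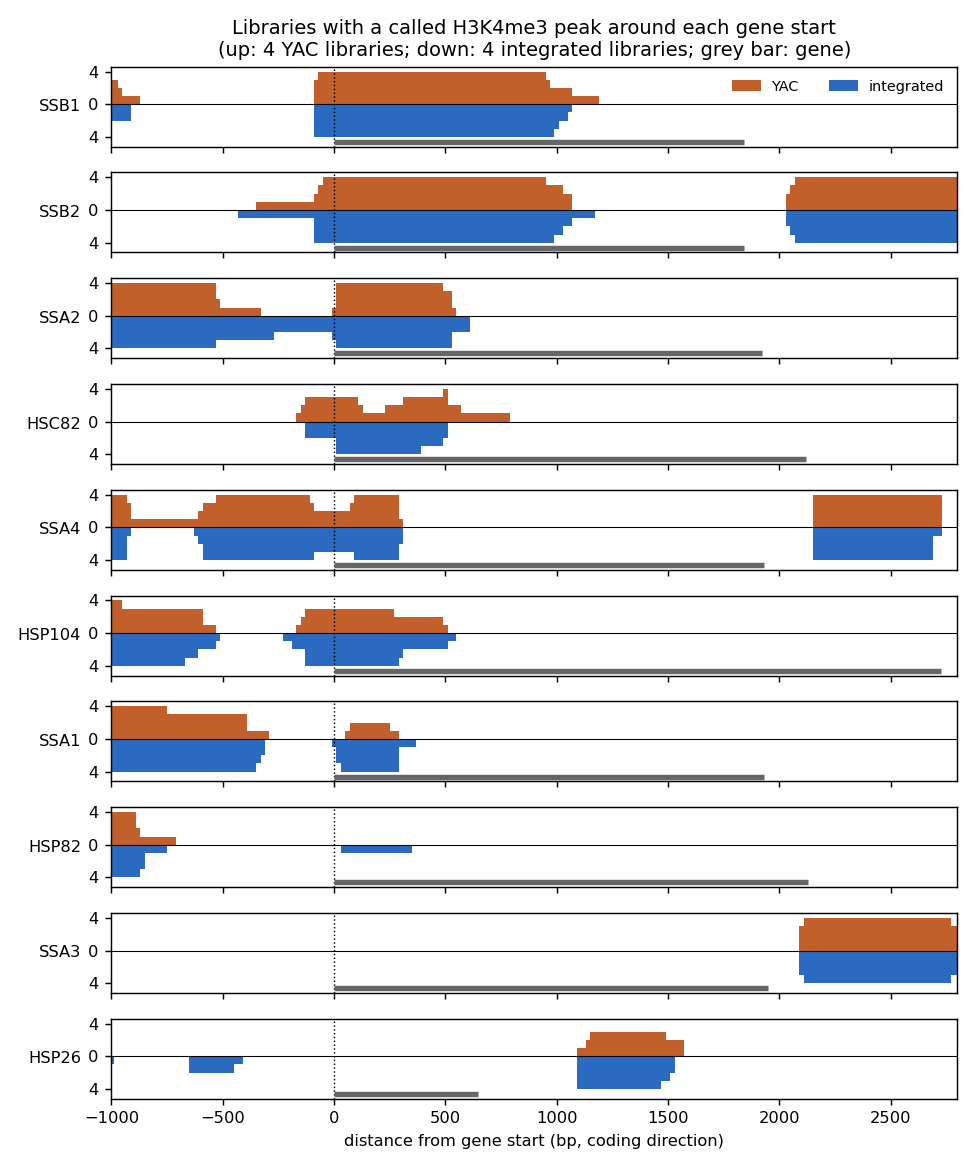
Number of libraries with a called H3K4me3 peak at each position around the start of the 10 genes, in steps of 20 bp, with the 4 YAC libraries drawn upward and the 4 integrated libraries downward; the x axis is the distance from the gene start in bp and the grey bar the gene. SSB1 and SSB2 carry broad peaks over the 5′ part of the gene in every library, whereas SSA3 and HSP26 have none over the gene.

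SSB1 and SSB2, the ribosome-associated pair, had the highest median folds of the 10 genes and the largest median covered shares. They also had the largest covered share in every library. By fold, SSA4 was higher than both in synHPRT1R YAC replicate 1 (2.14), and SSA2 was higher than SSB1 in synHPRT1 integrated replicate 2 (2.86). Peaks at SSA4 in the former library and at SSA2 in both synHPRT1 integrated libraries were wider in bp, where they also took in the start of a neighbouring gene. The highest fold at SSB2 was 2.96 and 2.98 in the synHPRT1 YAC libraries, 2.02 and 3.51 in the synHPRT1R YAC libraries, 3.76 and 3.27 in the synHPRT1 integrated libraries and 3.87 and 3.28 in the synHPRT1R integrated libraries. In the same order it was 2.43, 2.52, 1.92, 2.56, 3.25, 2.58, 3.05 and 3.05 at SSB1. SSB2 exceeded SSB1 in 8 of 8 libraries, by 0.26 ± 0.13 on the log2 scale (SD, n = 8). Fragments at the summit, solved from the fold and the p-value and set over the genome-wide background of the library, gave a difference of 0.44 ± 0.14 in the same direction. Of the 36-base words within 100 bp of these summits between 9.64% and 58.4% occur elsewhere, and of the 75-base words between 0% and 44.9%, so the part of shared reads in this difference was not tested.

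Peaks at SSB1 spanned 1039 to 1259 bp and those at SSB2 1119 to 1407 bp, with median summits at 454 and 444 bp downstream of the start. They covered 55.1% ± 3.4 of the window of SSB1 and 56.9% ± 2.4 of that of SSB2 (SD, n = 8), against a median over all genes between 25.0% and 29.5% per library. Among the 4040 genes with a peak in all 8 libraries, SSB2 ranked 494th by median height and SSB1 1656th. With the summit required inside the window 1884 genes had a peak in all 8, so a ranked height can be that of a neighbour.

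SSA2, the constitutive cytosolic Hsp70, had a single peak in each library with its summit between 97 and 397 bp downstream of the start. Its fold was 2.00, 2.33, 1.48 and 2.41 in the YAC libraries and 2.93, 2.86, 2.71 and 2.61 in the integrated ones. These groups did not overlap, and how many of all genes show the same was not counted. The median fold of all genes with a peak was also lower in YAC libraries, 2.00 to 2.37 against 2.35 to 2.59. In both synHPRT1 integrated libraries the SSA2 peak was joined to that of the upstream gene POM33, which encodes a nuclear pore protein. It reached 2243 and 2235 bp there, against 476 to 610 bp in the other 6. SSA2 ranked 1827th of 4040 by median height.

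HSC82 was the exception among the constitutive members. Its fold was 1.63, 1.62, 1.66 and 1.47 in the YAC libraries and 1.84, 1.57, 1.49 and 1.57 in the integrated ones, below the median of all genes with a peak in every library. It ranked 4011th of 4040, and only 1 of its 10 peaks reached a −log10 q of 10. The first peak began between −168 and 223 bp from the start, and both synHPRT1R YAC libraries held a separate second peak further into the gene. HSC82 covered 22.9% ± 4.2 of its window (SD, n = 8), close to SSA4 with 20.1% ± 4.2 and HSP104 with 17.4% ± 7.8.

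HSP82, its heat-inducible partner, had no peak in 7 libraries. In synHPRT1 integrated replicate 2 a peak of 316 bp with a fold of 1.34 and a −log10 q of 2.59 lay 25 to 340 bp downstream of the start. In the other 7 libraries the nearest peak lay upstream, at the divergent gene YAR1, 511 to 686 bp outside the window. HSC82 covered more of its window than HSP82 in 8 of 8 libraries, by 21.2 ± 6.5 percentage points. In the 1 library with a peak at both, HSC82 was higher by 0.23 on the log2 scale by fold and lower by 0.05 by fragments over the genome-wide background.

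**Figure D2:**
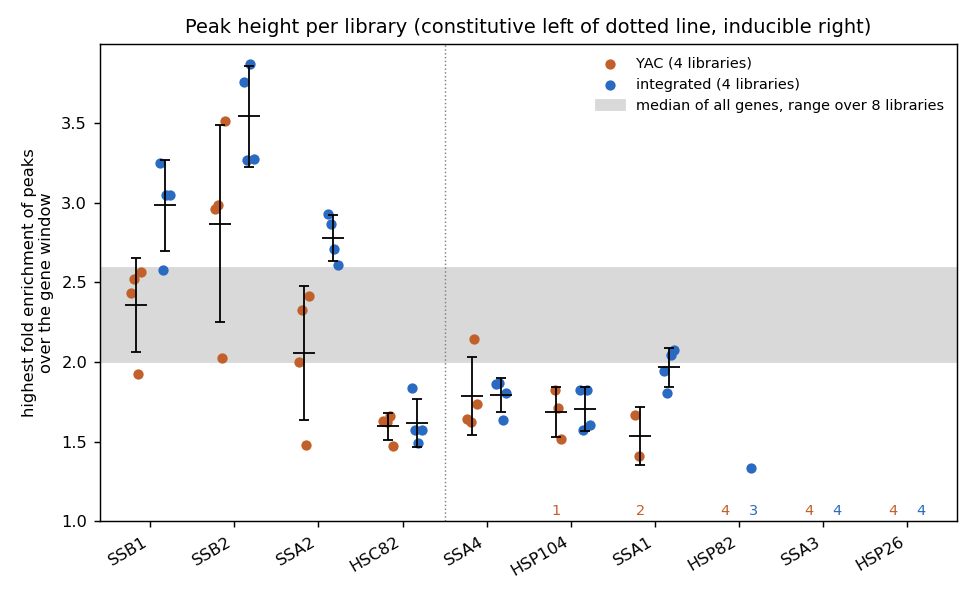
Highest fold enrichment of the peaks over each gene window (y axis, starting at a fold of 1) in each of the 4 YAC and 4 integrated libraries; bars show the mean and SD over the libraries with a peak, coloured digits the number of libraries without one, and the grey band the range over libraries of the median of all genes with a peak. SSB2 lies above the band in 7 of 8 libraries and HSC82 below it in all 8.

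SSA4, the strongly heat-induced cytosolic Hsp70, had peaks in every library. Its fold was 1.64, 1.62, 2.14 and 1.74 in the YAC libraries and 1.86, 1.87, 1.64 and 1.80 in the integrated ones. The value of 2.14 in synHPRT1R YAC replicate 1 came from a region of 3450 bp whose summit lay at −2079 bp from the start of SSA4 and 590 bp from that of the ribosomal protein gene RPS8B. With the summit required inside the window, SSA4 had a peak in 5 libraries. In the other 7 libraries the called region began between −623 and −535 bp from the start, where the annotation has no gene start (the nearest, that of RPS8B, lies at −1489 bp). It ended 280 to 310 bp downstream in all 8. In 3 libraries it was made of separate peaks upstream and downstream of the start and in the other 5 of 1 peak.

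SSA3, which shares 76.5% of its bases with SSA4, had no peak in any library. The nearest one lay 136 to 156 bp beyond the end of the gene in all 8, with its summit nearest to the start of ILS1, the gene of isoleucyl-tRNA synthetase. Neither gene holds a repeated 36-base word in its window. SSA4 covered more of its window than SSA3 in 8 of 8 libraries, by 20.1 ± 4.2 percentage points.

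SSA1 had the smallest median peak width of the members with a peak, 287.5 bp. Single peaks at SSA4 and HSC82 were as narrow as 206 and 210 bp. Peaks of SSA1 were 197 to 326 bp wide with summits 94 to 228 bp downstream of the start. Its fold was 1.67 and 1.41 in the synHPRT1 YAC libraries, it had no peak in either synHPRT1R YAC library, and its fold was 1.94, 1.81, 2.04 and 2.08 in the integrated libraries. SSA2 was higher than SSA1 in all 6 libraries with both peaks, by 0.50 ± 0.19 on the log2 scale (SD, n = 6), and covered more of its window in 8 of 8 libraries, by 18.7 ± 4.2 percentage points. The peaks of SSA1 ended 252 to 364 bp downstream of the start. Repeated 36-base words made up 4.53% of the first 300 bases of either gene and 86.4% of the next 300 (0% and 66.8% for 75-base words), and the peaks of SSA2 ended 483 to 610 bp downstream. Whether the placement of shared reads sets these ends was not tested.

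HSP104 had a peak over its start in 7 libraries, with folds of 1.83, 1.71 and 1.52 in the YAC libraries and 1.83, 1.57, 1.82 and 1.60 in the integrated ones. It had none in synHPRT1 YAC replicate 1, where the nearest peak lay 334 bp upstream of the window. HSP26 had none over its gene. In 5 libraries the nearest peak lay downstream, 437 to 511 bp outside the window and nearest to RDH54, a gene of DNA repair. In both synHPRT1R integrated libraries a peak lay 207 and 257 bp upstream of the window, with its summit nearest to the start of HSP26 itself. In synHPRT1R YAC replicate 1 the nearest lay 3239 bp away, near TAT1.

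The classes were compared by their medians in height and in extent, which treat a missing peak differently. Height used only members with a peak, 2 to 4 of the 6 inducible ones per library. The covered share counted a member without a peak as 0, so the 2 differences cannot be ranked against each other. The median log2 height of the constitutive members with a peak exceeded that of the inducible ones in 7 of 8 libraries, by 0.53 ± 0.27 on average (SD, n = 8). In synHPRT1R YAC replicate 1 the difference was −0.10, in the library where SSA4 took the height of its upstream neighbour. The median covered share was 36.8% to 44.5% in the constitutive class and 0% to 13.6% in the inducible class, a difference of 36.5 ± 3.0 percentage points. Classes of 4 and 6 genes are descriptions, and SSB1, SSB2 and SSA1, SSA2 are near-copies and not independent.

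**Figure D3:**
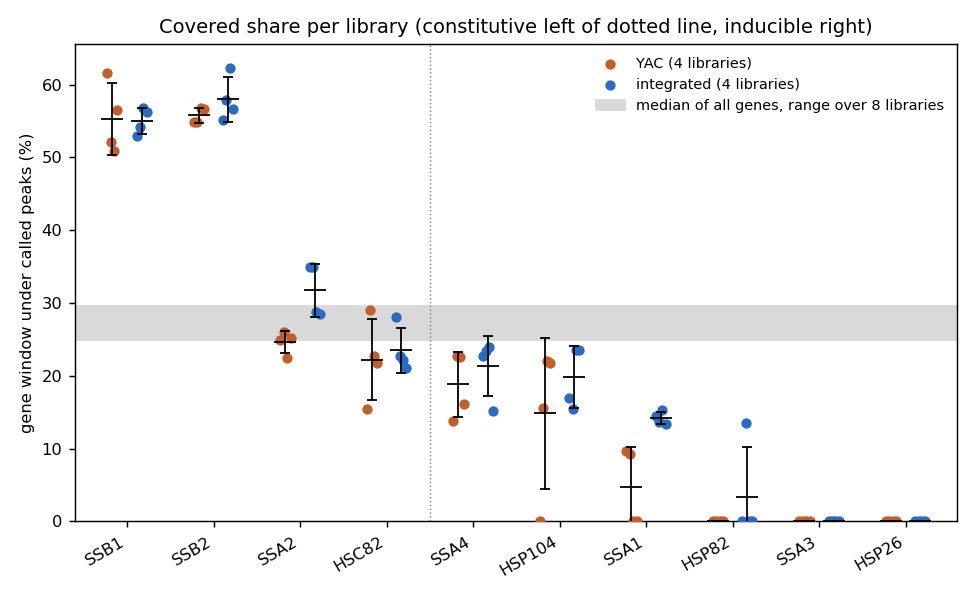
Percentage of each gene window under called peaks (y axis) in each of the 4 YAC and 4 integrated libraries, with the mean and SD per context (bars) and the range over libraries of the median of all genes (grey band); a gene with no peak is at 0. SSB1 and SSB2 lie above 50% in every library. SSA1 and SSA2 are lower in all 4 YAC than in all 4 integrated libraries, and how many of all genes show the same was not counted. The median of all genes was 25.0% to 28.3% in YAC and 27.7% to 29.5% in integrated libraries. In both synHPRT1 integrated libraries the SSA2 peak was joined to that of the upstream gene POM33.

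The peak lists of YAC and integrated strains were then compared for every gene with limma, with Benjamini-Hochberg adjustment over all genes tested. For peak height, 4040 genes had a peak in all libraries and 2 of them, or 0.0495%, were called at an adjusted p below 0.05. None of the 5 members tested was called. On the log2 scale and relative to the median gene, SSA2 was 0.28 lower in YAC strains (95% interval −0.48 to −0.08, adjusted p = 0.234), SSB1 was 0.17 lower (adjusted p = 0.337) and SSB2 0.15 lower (adjusted p = 0.516). HSC82 was 0.16 higher (adjusted p = 0.479) and SSA4 0.16 higher (adjusted p = 0.501), and both differences turned to −0.02 and −0.01 when libraries were not centred on their median, which moved the median of all genes by −0.17. The difference at SSA2 was called under 2 of its 17 alternatives, at −0.46 without centring (adjusted p = 0.0203) and at −0.39 without synHPRT1R YAC replicate 2 (adjusted p = 0.0280).

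For the covered share, 5196 genes were tested and 84 of them, or 1.62%, were called, 64 lower and 20 higher in YAC strains. With summits required inside the window 103 were called, 51 lower and 52 higher, so that the excess of lower calls was not kept. 8 members could be tested and 2 were called, SSA1 and SSA2, both lower in YAC strains, where 1.23% of all genes were called lower. The covered share of SSA1 was 9.68%, 9.25%, 0% and 0% in the YAC libraries and 14.4%, 13.6%, 15.3% and 13.4% in the integrated ones, a difference of −9.45 percentage points (SE 0.69, adjusted p = 0.00744). That of SSA2 was 24.9%, 25.99%, 22.5% and 25.2% against 34.9%, 34.9%, 28.8% and 28.4%, a difference of −7.11 points (SE 0.89, adjusted p = 0.0416). Neither gene had overlapping values between contexts, and how many of all genes show the same was not counted. In both synHPRT1 integrated libraries the SSA2 peak was joined to that of POM33 and covered all 200 bp upstream of the start. Downstream it ended at 539 bp in both, against 483 to 547 bp in the YAC libraries. In the synHPRT1R integrated libraries, where the SSA2 peak was not joined, it ended at 610 and 602 bp. The part of the joined peak in the difference at SSA2 was not tested. The median covered share of all genes was also lower in YAC strains, 25.0% to 28.3% against 27.7% to 29.5%, as was the median fold, 2.00 to 2.37 against 2.35 to 2.59, and the part of these shifts in both differences was not tested.

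The call at SSA1 held under 12 of 14 alternatives and ended in the additive design (adjusted p = 0.255) and with stricter peaks (adjusted p = 0.336). Libraries of a pair had almost the same covered share at SSA1, 0 included. The call at SSA2 held under 3 of 14 and was lost without 6 of the 8 libraries (limma, adjusted p = 0.0879 and 0.0537 without synHPRT1 YAC replicates 1 and 2, 0.115 and 0.132 without synHPRT1 integrated replicates 1 and 2, 0.115 and 0.0945 without synHPRT1R integrated replicates 1 and 2). The other 6 tested members were not called, and HSP104 covered 14.9% ± 10.3 in YAC and 19.9% ± 4.2 in integrated strains (SD, n = 4 each), with the value of 0 in 1 YAC library.

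Between synHPRT1R and synHPRT1 strains no gene of 4040 was called for peak height (0%, with 163 genes at an unadjusted p below 0.05), and the member with the largest difference, SSA4, was 0.13 higher in synHPRT1R strains (95% interval −0.11 to 0.37, adjusted p = 0.998). For the covered share 26 of 5196 genes, or 0.5%, were called and no member was among them. The difference, synHPRT1R minus synHPRT1, was −4.57 points at SSA1 (adjusted p = 0.142) and 10.7 points at HSP104 (adjusted p = 0.745). The effect of context differed between the loci at 10 of 4040 genes (0.248%) for height and at 43 of 5196 (0.828%) for the covered share, and at no member. SSA1, which lacked a peak in both synHPRT1R YAC libraries alone, came nearest, with an interaction of −9.79 points (adjusted p = 0.0830), a test run after its values were seen.

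The genes that work with these chaperones were read from 8 lists of 79 genes in all. Over all lists 56 of 79 genes, or 70.9%, had a peak in all 8 libraries, near the 67.3% of all genes. By list these were 10 of 11 Hsp90 cochaperones, 13 of 14 genes of the CCT chaperonin and prefoldin, 7 of 8 endoplasmic reticulum chaperones, 6 of 8 mitochondrial chaperones, 4 of 5 ribosome-associated chaperones, 9 of 13 partners of cytosolic Hsp70, 6 of 17 small heat shock and other stress genes and 1 of 3 stress transcription factors. 6 of the 17 stress genes had no peak in any library. These were HSP12, which encodes a membrane-associated stress protein, HSP31, HSP32 and HSP33, of a family related to the human protein DJ-1, BTN2, which encodes a protein that gathers misfolded proteins, and DDR2, a stress-response gene. Repeated 36-base words made up 95.9% of the window of HSP32 and 79.3% of that of HSP33, where reads match several places, and none of that of the other 4. SSE2, the inducible copy of the Hsp110 gene SSE1, and ECM10, a mitochondrial Hsp70 gene, also had no peak in any library.

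Among the 3 factors that switch on stress genes, HSF1 had a peak in all 8 libraries with a median fold of 2.84, whereas MSN4 had a peak in 1 (1.501). The highest genes of the other lists were CCT2, a subunit of the CCT chaperonin (4.65), CDC37, the cochaperone that brings kinases to Hsp90 (3.79), EGD1, a subunit of the nascent polypeptide-associated complex (3.67), SWA2, an auxilin-like partner of Hsp70 (3.41), SIL1, a nucleotide exchange factor of the endoplasmic reticulum (3.34), SSC1, the main mitochondrial Hsp70 (3.03), and TPS1, which makes trehalose phosphate (3.01). The lowest were APJ1 (1.27, 2 libraries), CUR1 (1.41, 5 libraries), HSP78 (1.42, 2 libraries), GIM4 (1.56, 6 libraries), BTT1 (1.62, 6 libraries), AHA1 (1.62, 7 libraries) and EUG1 (1.66, 4 libraries). The median of the median folds was 2.69 in the CCT and prefoldin list and 2.62 in the Hsp90 cochaperones, against 1.95 in the list of stress genes with a peak and 2.28 over all genes. Of the 11 Hsp90 cochaperones, 10 had median folds between 1.81 and 3.79, beside 1.60 at HSC82.

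No gene of these lists was called for peak height between contexts or loci. For the covered share 71 of the 79 genes could be tested. 2 were called between contexts, both lower in YAC strains, beside 1.62% of all genes called, and 2 between loci, both higher in synHPRT1R strains, beside 0.5% of all genes. EUG1, a relative of protein disulphide isomerase, had no peak in any YAC library and covered 20.01%, 17.9%, 18.6% and 12.5% in the integrated libraries, a difference of −17.3 points (adjusted p = 0.0121, and 0.0536 without synHPRT1 integrated replicate 1). YKE2, a prefoldin subunit, was covered to 45.1% and 49.9% in the synHPRT1 YAC libraries and to 100% in the other 6, which gave −26.2 points for context (adjusted p = 0.000913) and 26.2 for locus (adjusted p = 0.00217). Both calls were lost in the additive design, and with summits inside the window the difference between loci turned to −21.8 points and was called (adjusted p = 0.00595). PFD1, another prefoldin subunit, was covered to 71.1% and 74.9% in the synHPRT1 YAC libraries, 100% in both synHPRT1R YAC libraries and 80.0% to 81.1% in the integrated ones, a difference of 13.2 points between loci (adjusted p = 0.0181). The call at PFD1 was lost without synHPRT1 integrated replicate 1 or 2 or synHPRT1R integrated replicate 1 (adjusted p = 0.0612, 0.0667 and 0.0558), with the replicate block (adjusted p = 0.0885) and in the additive design (adjusted p = 1). The heights of YKE2 and PFD1 were not called, and these differences were in how far peaks ran along the gene.

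**Figure D4:**
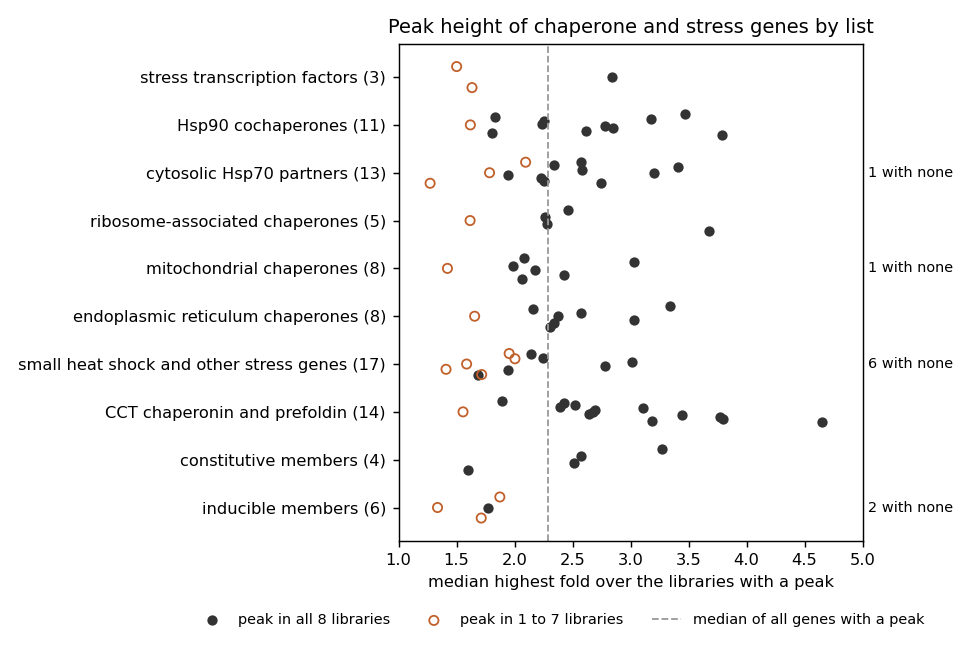
Median highest fold over the libraries with a peak (x axis) for each gene of the 8 lists and of both member classes, with the number of genes per list in parentheses; filled points had a peak in all 8 libraries, open points in 1 to 7, and genes with none are counted at the right. 3 of 4 constitutive members lie to the right of the median of all genes with a peak (2.28, dashed), and all inducible members with a peak lie to its left.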

How the data were processed

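H3K4me3 CUT&RUN peak lists of 8 libraries were analysed. The 8 IgG libraries were not used here. The authors aligned read pairs with Bowtie2 2.2.9 to sacCer3 plus the synthetic locus, kept duplicates, and called peaks in each library with MACS2 2.1.0 with no control named. The deposited values are fold enrichments at the summit (ratios to the local background), −log10 p-values and q-values, and a score (not used). Without a control, any region rich in fragments can be called. Total read counts are unknown from these lists.

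Peaks were assigned to gene windows of the RefSeq R64 annotation (sacCer3; 0 peaks lay beyond a chromosome end). log2 heights were centred on the library median over tested genes. Means of the 4 strains were fitted with limma 3.58.1 (R 4.3.3) with trended moderation, for height in genes with a peak in all 8 libraries and for the covered share in genes with a peak in any. Colonies are separate cultures of 1 strain, so p-values cover the spread between colonies only. The fits were also run on simulated normal values with planted differences. Such values lack the bounds and ties of the covered share, so no conclusion is drawn from them here. Other steps used Python 3.11.15 and Biopython 1.88 (identity by global alignment). Named were all members and, per list, the genes with the highest and lowest median height, without any peak, or called, the neighbour nearest to a member's highest summit, and ACT1, TDH3, PGK1, URA3 and MET17. The members, lists and tests were chosen with earlier results of these data known. Alternatives were a replicate block, an additive design, moderation without trend, no centring, quantile normalization, missing peaks at a fold of 1, peaks with −log10 q of at least 10, summits inside the window, a window to 800 bp, fragments over the genome-wide background, and leaving out each library.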

Additional observations from a re-analysis of the deposited data

Results flagged for a closer look

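Within each context the lowest or highest of 4 libraries, and for 3 summaries that of 8, was compared with the rest over 30 sets of values, and 3 libraries lay far from the others, where chance gives about 1 in 20. The covered share of SSA4 was 15.2% in synHPRT1R integrated replicate 2, the lowest of the integrated libraries, where the peaks upstream and downstream of the start were separate. HSP82 had its 1 peak, covering 13.6% of the window, in synHPRT1 integrated replicate 2, beside 3 libraries at 0, so that any value above 0 would have stood apart and the rate of 1 in 20 does not hold there. The difference between constitutive and inducible members in median log2 height was −0.10 in synHPRT1R YAC replicate 1, the library with the fewest peaks.

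The effect of context on the covered share differed between the loci at 2 genes of the lists, by 52.5 percentage points at YKE2 (adjusted p = 0.00193, limma) and by 27.5 points at PFD1 (adjusted p = 0.00965, limma), with the values per library given above.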

How the results depend on the processing

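Counts of called genes moved with most settings. For height between contexts, 2 genes were called, against 226 without centring (223 lower in YAC strains), 26 with missing peaks at a fold of 1, 0 with quantile normalization, 1 in the additive design, with stricter peaks, with summits inside the window or with fragments over the genome-wide background, and 0 to 83 with a library left out, 83 without synHPRT1R YAC replicate 2. Between loci, 0 became 2 without centring, 1 with missing peaks at a fold of 1 and 0 to 10 with a library left out. For their interaction, 10 became 4 with stricter peaks or quantile normalization, 0 with summits inside the window and 0 to 45 with a library left out. The covered share called 84 genes between contexts, 39 in the additive design and 80 to 364 with a library left out; 26 between loci, 0 in the additive design, 58 with stricter peaks, 66 with summits inside the window and 36 to 215 with a library left out; and 43 for the interaction, 81 with stricter peaks, 88 with summits inside the window and 47 to 357 with a library left out, each highest without synHPRT1R YAC replicate 2. With a library left out its group holds 1 sample, assumed to vary like the others. The replicate block gave 46, 8 and 23 covered-share calls, and cost SSA2 (adjusted p = 0.106) and PFD1 (0.0885) their calls, while SSA1 kept its own. Correlations of same-numbered libraries lay between −0.19 and 0.11, so numbers do not pair the libraries. Differences at HSC82 and SSA4 turned to −0.018 and −0.014 without centring, and that of YKE2 between loci to −21.8 with summits inside the window. Members with a peak averaged 4 with stricter peaks, against 6.75, while 2888 against 4040 of all genes had a peak in all 8 libraries. The class difference in covered share was 39.8 with stricter peaks and 64.4 with a window to 800 bp. By fragments, SSB1 minus SSB2 was −0.44 and HSC82 minus HSP82 −0.055. The cause of these shifts was not tested.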
